A study of Mus musculus with 2 samples.

Results

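Lhx2, Hand2, Tcf21, Foxf1, Pparg, Prrx1 and Wt1 are 7 genes for DNA-binding proteins of mesenchymal cells, and they were followed here across stellate cells, portal fibroblasts, mesothelium and endothelium of the mouse liver. They were chosen by name, and all 7 are among the 19219 genes listed in both deposited tables. The data are single-cell RNA-seq of hepatic non-parenchymal cells (NPCs) from 1 normal male C57BL/6 mouse (the normal library, labelled as the quiescent state) and 1 male C57BL/6 mouse with fibrosis induced by repeated injection of carbon tetrachloride, CCl4 (the fibrosis library). NPCs came from collagenase-digested liver after spins that deplete hepatocytes and a density gradient of which 2 layers were kept, so the share of each cell type depends on what these steps recovered. With 1 mouse in each condition no test between conditions was possible, and cells of 1 mouse are not replicates. The values below are counts of unique molecular identifiers (UMIs, 1 per captured mRNA molecule), and their intervals, all at 95%, cover counting error only.

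Hepatic stellate cells (HSCs) are the vitamin A-storing pericytes of the liver sinusoid, and in fibrosis they turn into matrix-producing myofibroblasts. Portal fibroblasts (PFs) lie around the bile ducts and portal vessels, and the mesothelium covers the liver surface. Lhx2 is a LIM-homeodomain factor whose loss in mice leads to activated stellate cells and a fibrotic liver. Hand2 and Tcf21 are basic helix-loop-helix factors that bind DNA as dimers with E proteins. Foxf1 is a forkhead factor of the mesenchyme of gut-derived organs, Prrx1 a paired-related homeobox factor of limb and connective tissue mesenchyme, and Wt1 a zinc finger factor of mesothelium and kidney. Pparg is a nuclear receptor that pairs with retinoid X receptors, drives fat cell and macrophage lipid genes, and has been tied to the quiescent state of stellate cells.

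On the GRCm38 assembly (mm10), the GENCODE annotation places Lhx2 on chromosome 2 from 38339281 to 38369733 and Wt1 on the same chromosome from 105126529 to 105173616. Hand2 lies on chromosome 8 from 57320983 to 57324633, and Foxf1 on chromosome 8 from 121084386 to 121088144. Tcf21 lies on chromosome 10 from 22817281 to 22820174, Pparg on chromosome 6 from 115360951 to 115490399 and Prrx1 on chromosome 1 from 163245119 to 163313710. All are protein-coding, and Tcf21 and Prrx1 are on the minus strand. Foxf1 lies within Gm20388, a far longer model on its own strand, and Prrx1 overlaps Gm26523 and Gm37644 on its own strand. Gm26523 is listed in both tables and the other 2 are not listed in those used here. The study counted UMIs from reads that mapped to 1 place and lay mostly on an exon, so reads shared by overlapping models may have been left out, and the counts of Foxf1 and Prrx1 are uncertain to that extent.

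RefSeq promoter windows (build GRCm38.p6) were at hand for 5 of the 7 genes, with 8 start sites in all. Printed here are those of Lhx2, Hand2 and Tcf21, 3 of the 4 factors that stood highest in normal stellate-like cells, and of Prrx1, the factor with the largest ratio between libraries there. Each window runs from 250 bases before to 50 bases after the start, 5′ to 3′ on the gene's strand. Capitals mark matches, on either strand, to letters that factors of these families are known to bind. They are TAATTA for homeodomain proteins, GCGGGGGCG for Wt1 and AGATAA for GATA factors.
Lhx2, first start, chr2:38339031-38339330, plus strand: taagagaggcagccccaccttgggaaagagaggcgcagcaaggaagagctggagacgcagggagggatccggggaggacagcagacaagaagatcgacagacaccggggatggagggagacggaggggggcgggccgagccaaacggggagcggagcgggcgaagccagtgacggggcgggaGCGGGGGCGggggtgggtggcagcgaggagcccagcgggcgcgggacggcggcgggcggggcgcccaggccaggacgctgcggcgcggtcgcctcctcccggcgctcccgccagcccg
Lhx2, second start, chr2:38351058-38351357, plus strand: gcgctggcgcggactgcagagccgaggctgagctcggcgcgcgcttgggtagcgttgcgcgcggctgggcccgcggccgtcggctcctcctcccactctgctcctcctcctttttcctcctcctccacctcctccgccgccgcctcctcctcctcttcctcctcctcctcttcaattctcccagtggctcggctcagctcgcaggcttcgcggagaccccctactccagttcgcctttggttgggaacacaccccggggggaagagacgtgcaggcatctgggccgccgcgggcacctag
Hand2, chr8:57320733-57321032, plus strand: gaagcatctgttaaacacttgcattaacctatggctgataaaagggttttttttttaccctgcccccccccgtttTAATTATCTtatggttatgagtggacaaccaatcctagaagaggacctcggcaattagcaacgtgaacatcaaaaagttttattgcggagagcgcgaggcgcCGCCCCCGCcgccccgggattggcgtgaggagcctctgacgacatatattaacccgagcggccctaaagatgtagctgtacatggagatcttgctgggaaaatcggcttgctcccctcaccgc
Tcf21, chr10:22820094-22820393, minus strand: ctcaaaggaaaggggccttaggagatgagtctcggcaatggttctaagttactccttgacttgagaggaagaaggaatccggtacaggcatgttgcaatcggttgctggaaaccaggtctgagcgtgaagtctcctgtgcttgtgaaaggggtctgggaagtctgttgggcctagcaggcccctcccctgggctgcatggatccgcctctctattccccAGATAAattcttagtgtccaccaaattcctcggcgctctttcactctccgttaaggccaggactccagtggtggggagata
Prrx1, chr1:163313601-163313900, minus strand: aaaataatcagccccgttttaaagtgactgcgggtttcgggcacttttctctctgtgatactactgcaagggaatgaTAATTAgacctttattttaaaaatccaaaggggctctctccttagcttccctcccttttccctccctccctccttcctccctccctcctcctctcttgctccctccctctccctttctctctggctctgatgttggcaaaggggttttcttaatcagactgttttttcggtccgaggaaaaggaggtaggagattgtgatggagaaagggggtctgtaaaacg
The Wt1 letters occur in the first Lhx2 window, at -68, and in the Hand2 window, at -73, against 2.91% of all 32851 windows. TAATTA occurs in Hand2 at -175 and in Prrx1 at -173, against 5.29% of windows, and AGATAA in Hand2 at -172, where it overlaps TAATTA, and in Tcf21 at -31, against 11.2%. The general E-box CANNTG, which is not in capitals, occurs in 72.3% of windows. It has 2 matches in Hand2 and 1 in the second Lhx2 window, and none in the Tcf21, Prrx1 or first Lhx2 window. The forkhead letters GTAAACA, found in 3.65% of windows, occur in none of the 8. The same holds for a pair of E-box forms, CATATG with 3.91% of windows and the form CAGCTG with 16.3%. The nuclear receptor half-site AGGTCA, found in 16.3% of windows, occurs in 2 of the 3 Pparg windows, at -28 and at -9, and the TATA box letters TATAAA, found in 13.6%, in 1 of them at -29. A match is a run of letters and says nothing of binding.

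The normal library holds 8130 cells and 44062632 UMIs (898 to 75847 a cell), and the fibrosis library 6437 cells and 53288463 UMIs (815 to 116430 a cell). After the filter on mitochondrial reads 7471 and 6132 cells remained. 15 cell barcodes occur in both libraries, 0.185% of the normal and 0.233% of the fibrosis barcodes. Each library was clustered on its own without the 7 genes, and clusters were named by marker lists that hold none of them. Sub-clusters that carried markers of endothelial cells (60 normal and 174 fibrosis cells) or of macrophages (64 fibrosis cells) were set apart. A level here is a gene's summed UMIs scaled to 10000 UMIs of its class.

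In the normal library, 64 HSC-like cells (median 6054 UMIs) had all 12 stellate markers, 44 PF-like cells (median 7269.5 UMIs) 9 of 10 PF markers and 44 mesothelial-like cells (median 11191.5 UMIs) all 8 mesothelial markers raised over 2 times. The fibrosis library gave 119 HSC-like cells (median 11421 UMIs, 12 of 12 markers) and 48 mesothelial-like cells (median 16072.5 UMIs, 8 of 8 markers). No sub-cluster of the fibrosis library could be named portal fibroblast. The nearest, 82 cells led by Ltbp2 and with Col1a1 and Dpt among its leading genes, had 7 of 10 PF markers raised but also 9 of 12 stellate markers, and it is called the Ltbp2/Dpt sub-cluster. Wt1, though held out of the clustering, was also among its 10 leading genes. Of the defining PF genes, Vit had no UMI in it. A further 29 cells led by Cxcl5 had all 8 mesothelial markers raised, but none among their 10 leading genes, which the naming rule asked for, and stayed unnamed as well. All 14 endothelial markers were raised in the endothelial-like cells, 2054 normal and 1665 fibrosis cells. B and NK or T cells together (lymphoid cells, 1590 and 1078) served as cells that should lack the factors, since free RNA puts some UMIs of a gene into every droplet.

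Most UMIs of these factors lay in the mesenchymal clusters, with Pparg as the exception. Whole-library counts ran from 93 UMIs (Prrx1) to 801 (Hand2) in the normal library and from 903 (Pparg) to 4435 (Hand2) in the fibrosis library. For the 6 factors other than Pparg, the mesenchymal clusters held between 87.5% (Lhx2) and 94.8% (Wt1) of the UMIs in normal cells and between 88.7% (Foxf1) and 96.1% (Wt1) in fibrosis cells. These clusters, which include the sub-clusters set apart, made up 5.84% of all normal and 24.8% of all fibrosis UMIs. For Pparg, they held 3.59% and 9.63%, in each library less than their share of all UMIs. HSC-like cells alone held less. Of the Lhx2, Hand2, Tcf21 and Foxf1 UMIs, they had between 27.6% (Foxf1) and 39.8% (Tcf21) in the normal library. In the fibrosis library they had between 16.5% (Tcf21) and 18.3% (Foxf1).

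**Figure D1:**
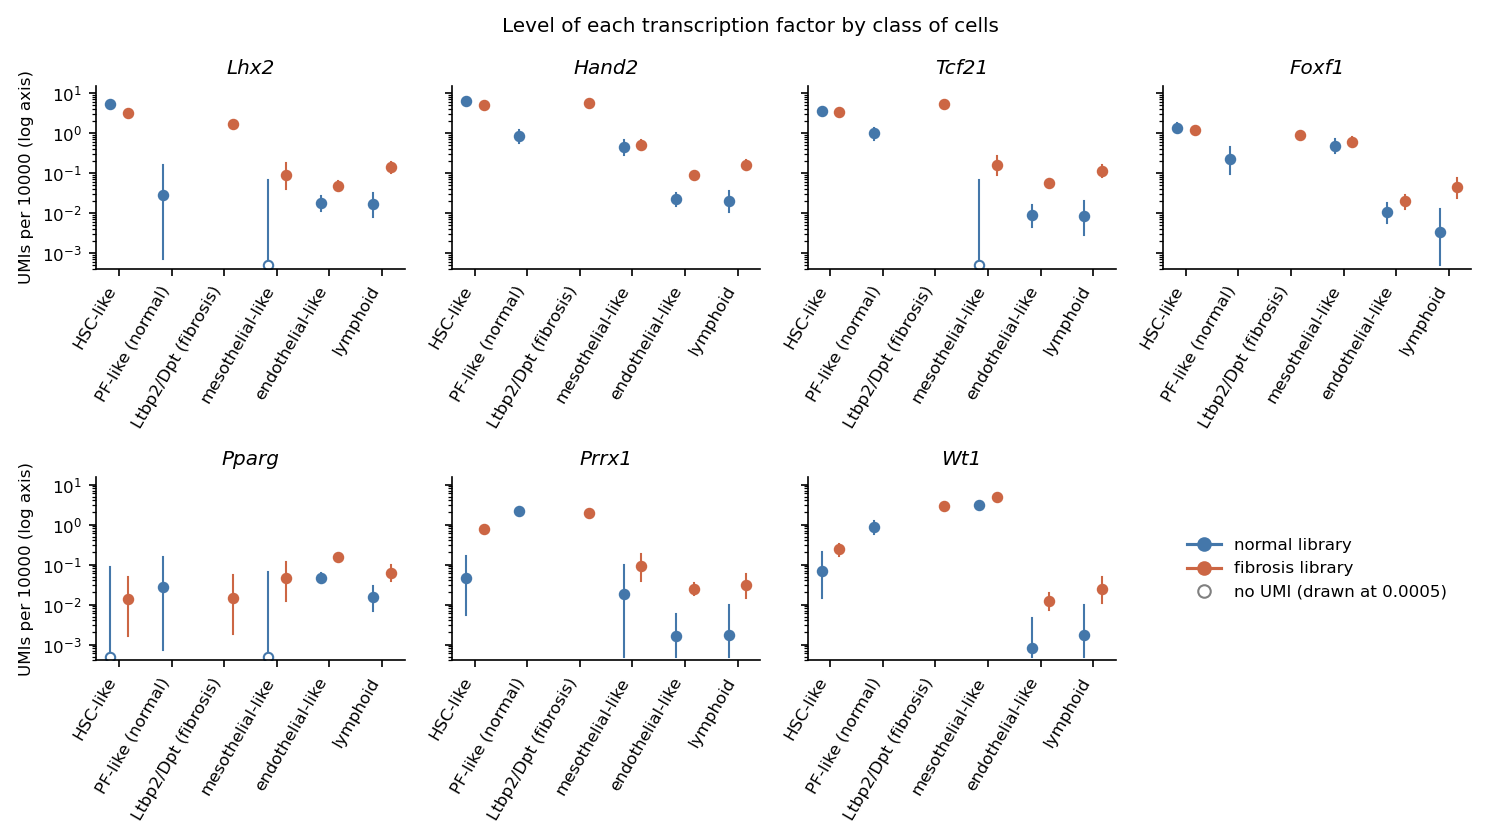
Level of each factor (UMIs per 10000 UMIs of the class, log axis) in 5 classes of cells and in lymphoid cells, with the normal library in blue and the fibrosis library in orange; bars are exact 95% Poisson intervals, and open points are classes without a UMI. Among the classes of the normal library, Lhx2, Hand2, Tcf21 and Foxf1 stand highest in HSC-like cells, Prrx1 in PF-like cells and Wt1 in mesothelial-like cells.

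Lhx2 had the narrowest pattern of the stellate factors. It stood at 5.20 UMIs per 10000 (4.54 to 5.92) in normal HSC-like cells, from 226 UMIs in 49 of 64 cells. In PF-like cells a single UMI was counted, a level of 0.0281 (0.000712 to 0.157), and in mesothelial-like cells there was none, which allows up to 0.0538 (3 counts). Endothelial-like and lymphoid cells stood at 0.0177 and 0.0170, with overlapping intervals. In the fibrosis library Lhx2 stood at 3.15 (2.87 to 3.45) in HSC-like cells and at 1.65 (1.44 to 1.89) in the Ltbp2/Dpt sub-cluster, and these intervals do not overlap. Mesothelial-like cells held 8 UMIs, 6 of them in 1 cell.

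Hand2 was highest in normal HSC-like cells too, but it was also present in the other mesenchymal classes. Its level was 6.48 (5.75 to 7.29) for HSC-like cells and 0.843 (0.569 to 1.20) for PF-like cells, and mesothelial-like cells stood at 0.448 (0.290 to 0.662), an interval that overlaps the one before. Endothelial-like cells stood at 0.0225 (0.0150 to 0.0326), within the interval of lymphoid cells. In the fibrosis library the Ltbp2/Dpt sub-cluster, at 5.51 (5.12 to 5.92), and HSC-like cells, at 5.03 (4.67 to 5.41), could not be told apart. Mesothelial-like cells stood at 0.514 (0.375 to 0.688).

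Tcf21 followed Hand2 in stellate cells and fibroblasts but was not detected in normal mesothelium. Normal HSC-like cells stood at 3.59 (3.05 to 4.2) and PF-like cells at 0.984 (0.685 to 1.37), and mesothelial-like cells had no UMI. In the fibrosis library the Ltbp2/Dpt sub-cluster stood at 5.46 (5.07 to 5.87), above HSC-like cells at 3.27 (2.98 to 3.58). Fibrosis mesothelial-like cells held 14 UMIs (0.16, 0.0875 to 0.269), 8 of them in 1 cell, an interval that overlaps that of lymphoid cells.

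Foxf1 differed least of the 4 stellate factors between the normal mesenchymal classes. HSC-like cells stood at 1.36 (1.03 to 1.75), mesothelial-like cells at 0.484 (0.319 to 0.705) and PF-like cells at 0.225 (0.0971 to 0.443), the last pair with overlapping intervals. In the fibrosis library HSC-like cells stood at 1.18 (1.01 to 1.37), the Ltbp2/Dpt sub-cluster at 0.890 (0.737 to 1.07) and mesothelial-like cells at 0.606 (0.454 to 0.793), and neighbours in this order overlap.

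Prrx1 was highest in PF-like cells in the normal library. They stood at 2.14 (1.68 to 2.67), from 76 UMIs in 27 of 44 cells, against 0.0460 (0.00557 to 0.166) in HSC-like cells, from 2 UMIs. Mesothelial-like cells held 1 UMI. In the fibrosis library the Ltbp2/Dpt sub-cluster at 1.89 (1.67 to 2.14) and the 29 cells led by Cxcl5 at 1.75 (1.48 to 2.05) could not be told apart, and below them stood HSC-like cells at 0.761 (0.626 to 0.916) and mesothelial-like cells at 0.0915 (0.0395 to 0.180), the last with an interval that overlaps that of lymphoid cells.

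Wt1 was highest in mesothelial-like cells among the named classes of both libraries, at 3.09 (2.64 to 3.58) and 4.74 (4.30 to 5.22), but in the fibrosis library 2 unnamed sub-clusters had it as well. It had a UMI in 39 of 44 and 44 of 48 of these cells. The level of normal PF-like cells, 0.872 (0.592 to 1.24), rested on 5 of 44 cells: 29 of 31 UMIs lay in 3 cells, without which the level is 0.0652. These 5 cells had mesothelial markers at a summed level of 4.89, against 0.472 in the other 39 PF-like cells and 167 in mesothelial-like cells. They had PF markers at a summed level of 48.2, against 90.9 in the others. The part that admixed mesothelial RNA has in it was not tested. In the Ltbp2/Dpt sub-cluster Wt1 stood at 2.98 (2.70 to 3.29) and had a UMI in 73 of 82 cells, with mesothelial markers at a summed level of 1.3 and 1 of 8 raised. The 29 cells led by Cxcl5 stood at 4.99 (4.52 to 5.49), an interval that overlaps that of mesothelial-like cells, with mesothelial markers at a summed level of 11.8. Of 1499 Wt1 UMIs in the fibrosis cells, mesothelial-like cells held 415, the Ltbp2/Dpt sub-cluster 399 and the cells led by Cxcl5 422.

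Endothelial-like cells carried these factors at or near the level of lymphoid cells, except for Pparg. In the normal library the intervals of endothelial-like and lymphoid cells overlap for Lhx2, Hand2, Tcf21, Foxf1, Prrx1 and Wt1. In the fibrosis library they overlap for Foxf1, Prrx1 and Wt1, and for Lhx2, Hand2 and Tcf21 endothelial-like cells lay below lymphoid cells, at 0.0487 against 0.140, 0.0916 against 0.159 and 0.0567 against 0.112. Endothelial-like cells thus did not stand above the cells that should lack these 6 factors.

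Pparg had few or no UMIs in HSC-like cells. Normal HSC-like cells held no Pparg UMI, which allows up to 0.0690 per 10000 (3 counts), and the 119 fibrosis HSC-like cells held 2, a level of 0.0137 (0.00166 to 0.0495). Endothelial-like cells stood at 0.0467 (0.0355 to 0.0604) and 0.155 (0.135 to 0.177), above lymphoid cells (0.0153 and 0.0624) in both libraries. The upper end of HSC-like cells lies below that range in the fibrosis library, while the few normal HSC-like cells do not set a limit under it. Sinusoidal and vessel endothelial clusters could not be told apart, at 0.0445 and 0.0525 (normal) and at 0.171 and 0.134 (fibrosis). Kupffer-like cells, the resident macrophages of the liver, stood at 0.102 (0.0656 to 0.152) in the normal and 0.254 (0.200 to 0.317) in the fibrosis library. The 511 monocyte or macrophage-like cells of the fibrosis library, led by Gpnmb and with Trem2 and Ms4a7 among their leading genes, stood at 0.479 (0.432 to 0.531). The marker rule gave the same name to 504 normal cells, but 463 of them form a cluster led by Ccl17, Mpo and Elane with 1 marker of that class among its 10 leading genes, and 313 normal cells were named dendritic at a Leiden resolution of 1.5. They are called mixed myeloid cells here, stood at 0.112 (0.0818 to 0.150), and are not compared with the fibrosis class. The sub-cluster of mesenchymal cells with macrophage markers stood at 0.173 (0.116 to 0.248).

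**Figure D2:**
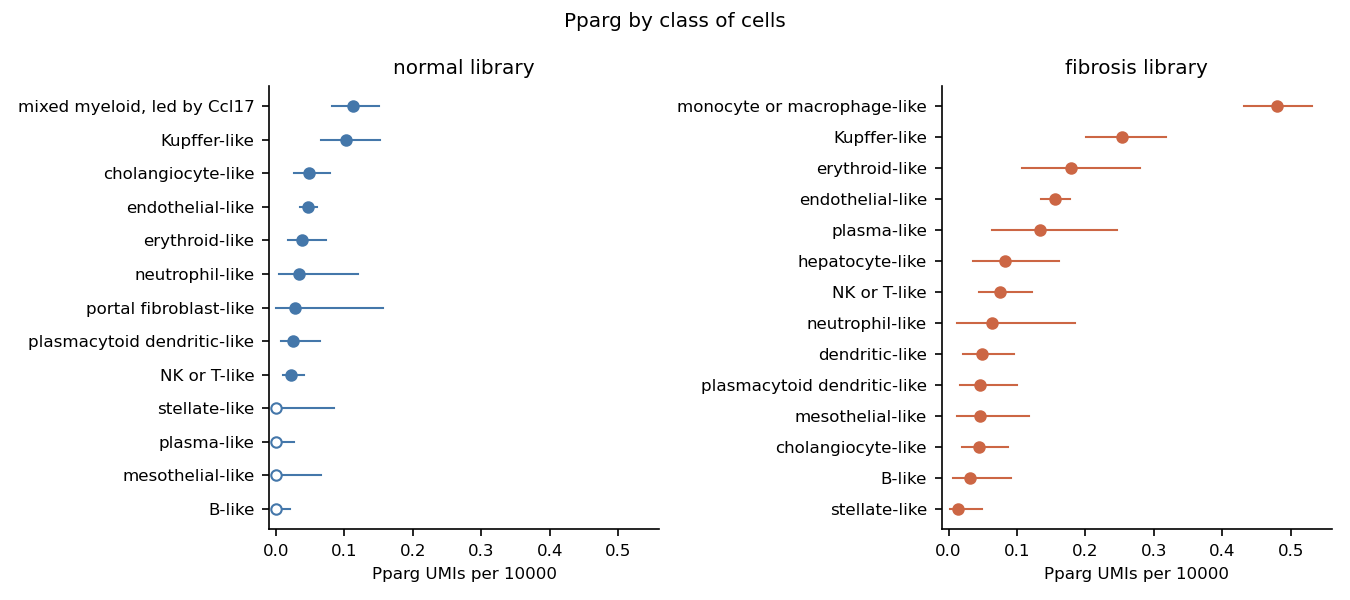
Pparg level (UMIs per 10000, linear axis) in each named class of the normal (left) and fibrosis library (right), ordered by level, with exact 95% Poisson intervals. Open points are classes without a UMI. Unnamed and cycling classes and sub-clusters with other cell types' markers are left out. Among those left out, 14 unnamed normal mesenchymal cells held 3 Pparg UMIs, a level of 0.310. Of the classes shown, mixed myeloid cells led by Ccl17 are at the top in the normal library, at 0.112. Monocyte or macrophage-like cells are at the top in the fibrosis library, at 0.479. Stellate-like cells, at 0 and 0.0137, are among the lowest.

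For the share of cells in which a factor was found, each cell was first cut down at random to 1000 UMIs (thinned), which puts cells of unequal depth on 1 footing. In normal HSC-like cells Hand2 was found in 45.3% of thinned cells (32.8 to 58.3; 78.1% unthinned), Lhx2 in 37.5% (25.7 to 50.5; 76.6% unthinned), Tcf21 in 20.3% (11.3 to 32.2; 64.1% unthinned) and Foxf1 in 3.13% (0.381 to 10.8; 50.0% unthinned). Thinned lymphoid cells (median 3170 UMIs before thinning) had them in 0.378%, 0.189%, 0.189% and 0%, the last from 0 of 1588 cells, which allows up to 0.189%. In fibrosis HSC-like cells the shares were 27.7% for Hand2, 21.8% for Lhx2, 18.5% for Tcf21, 9.24% for Foxf1 and 8.40% for Prrx1, against 1.88%, 1.31%, 1.88%, 0.188% and 0.657% in lymphoid cells (median 2371 UMIs). No HSC-like cell was too shallow for the thinning, and 2 normal and 12 fibrosis lymphoid cells were. Lhx2 and Hand2 were found together in 17.2% of normal and 9.24% of fibrosis HSC-like cells after thinning (68.8% and 66.4% unthinned), and Lhx2 and Prrx1 together in 0% and 2.52% (3.13% and 30.3% unthinned). If detection of the 2 genes were independent over the cells of a class, the unthinned shares would be 59.8% and 59.1% for Lhx2 with Hand2. For Lhx2 with Prrx1 they would be 2.39% and 24.5%. These products take no account of depth, which differed between the cells of a class, and its part in the differences was not tested. Pparg had no UMI in any thinned HSC-like cell, which allows detection at 1000 UMIs in up to 4.69% of normal and 2.52% of fibrosis cells. Before thinning, 2 of 119 fibrosis cells (1.68%) held a Pparg UMI.

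Between the libraries, the factors of HSC-like cells fell into 4 that differed by under 2 times and 2 that were higher in fibrosis. Of the 6 factors with at least 20 UMIs over both libraries, 2 (Prrx1 and Wt1) were higher by the rule used here, a ratio of at least 2 with an interval that leaves out 1, and 0 were lower. Among all 9180 genes counted in these cells 6.47% were higher and 6.15% lower by the same rule, and their median ratio was 1.04, against 0.891 for the 6 factors.

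Prrx1 stood at 0.0460 and 0.761 UMIs per 10000 (2 UMIs in the normal and 111 in the fibrosis cells), a ratio of 16.6 (4.48 to 138). In lymphoid cells it stood at 0.00170 and 0.0312, a difference in the same direction at a far lower level, whose part in the ratio was not tested. Wt1 stood at 0.0690 and 0.240 (3 and 35 UMIs), a ratio of 3.48 (1.10 to 17.7), and in lymphoid cells at 0.00170 and 0.0250. Leaving out the cells with the 5% highest doublet scores left 40 fibrosis HSC-like cells, with 72 cells more in an unnamed sub-cluster, and the ratios were then 2.84 for Prrx1 and 0.189 for Wt1. Without a limit on mitochondrial reads 71 fibrosis cells were HSC-like, with 80 cells more unnamed with stellate markers highest. The ratios, 8.01 and 1.33, were then not called.

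Lhx2 was lower, at 5.20 in the normal and 3.15 in the fibrosis HSC-like cells, a ratio of 0.606 (0.515 to 0.713). Hand2 stood at 6.48 and 5.03, a ratio of 0.776 (0.676 to 0.894). Both intervals lie under 1 but neither gene reached the limit of 0.5, and both ratios turned to above 1 (1.09 and 1.4) when UMIs were taken per cell, in cells that were deeper in the fibrosis library (median 11421 against 6054 UMIs). With the cycling sub-cluster added to the fibrosis cells, an alternative chosen after the data were seen, Lhx2 stood at 0.590 times and Hand2 at 0.721 times. Intervals of Tcf21 (3.59 and 3.27, ratio 0.912, 0.759 to 1.10) and Foxf1 (1.36 and 1.18, ratio 0.869, 0.643 to 1.19) hold 1, and with the cycling cells that of Tcf21 did not (0.806, 0.678 to 0.963). Pparg, with 2 UMIs in all, was not counted.

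**Figure D3:**
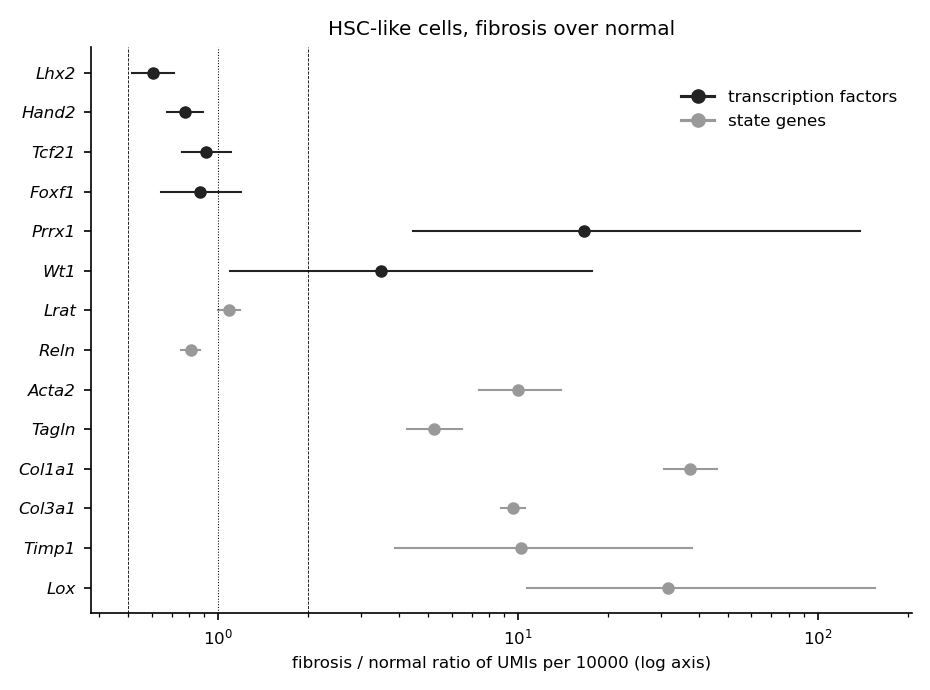
Ratio of fibrosis over normal UMIs per 10000 in HSC-like cells (log axis) with exact conditional 95% intervals, for 6 factors (black) and 8 genes that tell the quiescent from the activated state (grey); dashed lines mark 0.5 and 2. Lhx2 and Hand2 lie below 1 at 0.606 and 0.776, Prrx1 lies at 16.6, and Col1a1, at 37.3, is the highest of the genes shown.

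The HSC-like cells differed widely in state between the libraries. Col1a1, a chain of type I collagen, stood at 2.23 and 83.2 UMIs per 10000, a ratio of 37.3 (30.6 to 46.1), and 6 genes of the state list were higher (also Acta2, Tagln, Col3a1, Timp1 and Lox). Lrat, the enzyme that stores vitamin A as retinyl ester, stood at 15.6 and 16.9, a ratio of 1.09 (0.997 to 1.18). Hepatocyte markers, 7 genes of which none was raised or at 0, stood in the same cells at a summed level of 100.1 in the normal library and 7.49 in the fibrosis library, against 105 and 8.98 in endothelial-like cells, and their part in the ratios was not tested. Reln, a secreted glycoprotein of quiescent stellate cells, stood at 24.0 and 19.4, a ratio of 0.809 (0.753 to 0.869).

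In mesothelial-like cells Wt1 stood at 3.09 and 4.74, a ratio of 1.54 (1.28 to 1.85), which does not reach the limit of 2. Ratios of Hand2 (1.15, 0.689 to 1.95) and Foxf1 (1.25, 0.773 to 2.07) hold 1. Among all 8777 genes counted in these cells 11.5% were higher and 6.57% lower, and none of the 3 factors with at least 20 UMIs was either. Lhx2 and Tcf21, without a UMI in the normal class, had 8 and 14 in the fibrosis class, mostly in 1 cell each.

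In endothelial-like cells Pparg stood at 0.0467 and 0.155, a ratio of 3.32 (2.47 to 4.51), and in lymphoid cells at 0.0153 and 0.0624, a ratio of 4.08 (1.77 to 10.2). Of the 6 factors with at least 20 UMIs in endothelial-like cells 5 were higher by the rule (Lhx2, Hand2, Tcf21, Pparg and Prrx1), against 7.76% of all 13312 genes counted, and 0 were lower, against 8.53%. In lymphoid cells 10.6% of 12411 genes were higher and 7.83% lower. Of the 5 factors, all but Pparg lay at or below the level of lymphoid cells, in which the ratios of Lhx2, Hand2 and Tcf21 were 8.25, 7.80 and 13.2. The part of free RNA in these endothelial ratios was not tested.

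Within fibrosis HSC-like cells 2 sub-clusters differed in their matrix genes, with 11.9 Col1a1 UMIs per 10000 in 60 cells (median 5298.5 UMIs) and 110 in 59 cells (median 17183 UMIs). Lrat was alike, at 16.8 and 16.9. Lhx2 stood at 2.82 (2.32 to 3.39) in the first and 3.27 (2.93 to 3.63) in the second, a ratio of 1.16 (0.935 to 1.45), and both lay under the normal level of 5.20, at 0.543 (0.429 to 0.683) and 0.629 (0.531 to 0.748) times it. Hand2 (3.67 and 5.55, ratio 1.51, 1.26 to 1.82) and Tcf21 (2.40 and 3.60, ratio 1.5, 1.20 to 1.90) were higher in the sub-cluster with more Col1a1. Prrx1 was higher there too, at 0.349 and 0.917 (ratio 2.62, 1.49 to 4.98), and over normal HSC-like cells the ratios were 7.60 (1.75 to 68.9, from 16 UMIs in all) and 19.9 (5.37 to 167). Wt1 stood at 0.125 and 0.284, from 5 and 30 UMIs. The sub-clusters were made from all other genes of these cells, and their depth differed along with Col1a1, so these ratios describe the 2 groups of cells.

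**Figure D4:**
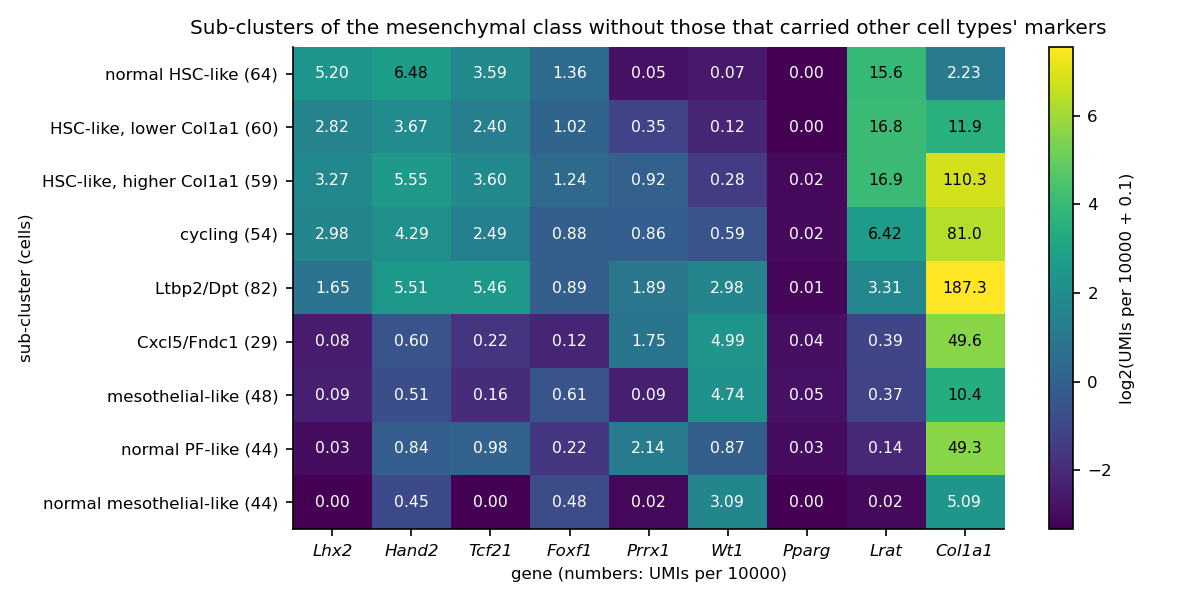
Levels (UMIs per 10000, printed in each cell, coloured by log2 with 0.1 added) of the 7 factors, Lrat and Col1a1 in mesenchymal sub-clusters of both libraries, with the number of cells in parentheses; sub-clusters with markers of endothelial cells or macrophages and 14 unnamed normal cells are left out. Among the fibrosis rows, Lhx2 lies between 2.82 and 3.27 in the HSC-like and cycling rows and at 1.65 or lower in the others, Tcf21 is highest in the Ltbp2/Dpt row (5.46) and Wt1 in the Cxcl5/Fndc1 row (4.99).

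The remaining fibrosis sub-clusters held other mixtures of the same factors. A sub-cluster of 54 cells (median 24817 UMIs) had all 5 cycling markers raised, at a summed level of 37.9 against 0.631 in HSC-like cells, and was kept out of the HSC-like class although all 12 stellate markers were raised too (summed 57.5 against 107). It had Lhx2 at 2.98 (2.69 to 3.28), Hand2 at 4.29 (3.95 to 4.65), Prrx1 at 0.864 (0.715 to 1.03) and Wt1 at 0.588 (0.467 to 0.731). The Ltbp2/Dpt sub-cluster was the only one with all of Lhx2, Hand2, Tcf21, Prrx1 and Wt1 above 1 UMI per 10000, and a median of 5.5 of the 7 factors were found in each of its cells (median 13989 UMIs), against 4 in HSC-like cells (median 11421 UMIs). The 29 cells led by Cxcl5, with Fndc1 among their leading genes, had both Wt1 and Prrx1 above 1 UMI per 10000, but Lhx2 at 0.0827 (0.0333 to 0.170). Their Foxf1, at 0.118 (0.0567 to 0.217), lay below that of mesothelial-like cells. Sub-clusters that carried endothelial markers differed among themselves. The normal one, of 60 cells (median 15440.5 UMIs), had Lhx2 at 3.23 and Hand2 at 3.61. Of the 3 in the fibrosis library, the one with the highest share of endothelial marker level, 0.848, had Lhx2 at 0.929 and Hand2 at 1.26 (median 23473 UMIs). The others, with shares of 0.546 and 0.440, had Lhx2 at 2.0 and 2.22 and Hand2 at 3.40 and 2.84 (median 23743 and 40456.5 UMIs), and the last of these also had all 5 cycling markers (summed 28.7) and 5 of 8 mesothelial markers raised. The sub-cluster with macrophage markers had Lhx2 at 1.75 and Hand2 at 2.87. The part of a second cell type's RNA in these levels was not tested.

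Among close relatives of the 7 factors, Lhx9, the paralog of Lhx2, and Hand1, the paralog of Hand2, had no UMI in HSC-like cells in either library and were found in mesothelial-like cells, Lhx9 at 0.448 (0.290 to 0.662) in the normal and 0.126 (0.0628 to 0.225) in the fibrosis library and Hand1 at 0.108 and 0.0343. Prrx2, the relative of Prrx1, stood at 0.309 (0.154 to 0.553) in normal PF-like cells and 0.202 (0.133 to 0.294) in the Ltbp2/Dpt sub-cluster, and had 0 normal and 1 fibrosis UMI in HSC-like cells. Msc, the paralog of Tcf21, stood at 0.414 and 0.254 in HSC-like cells, a ratio of 0.613 (0.340 to 1.14). Ppard, the widely expressed relative of Pparg, stood at 0.368 and 0.452 in HSC-like cells, a ratio of 1.23 (0.704 to 2.28), and Ppara at 0.0690 and 0.0343. Of the 7 relatives 6 are listed in both tables and 2 had at least 20 UMIs in HSC-like cells, of which 0 were called. Foxf2 has 2 UMIs in normal PF-like cells and is not listed in the fibrosis table used here.

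Among 14 dimer partners and cofactors 13 had at least 20 UMIs, of which 1 was higher and 1 lower in HSC-like cells of the fibrosis library, with a median ratio of 0.947. The higher was Id1, an inhibitor of basic helix-loop-helix dimers, at 0.322 and 0.658 (ratio 2.04, 1.16 to 3.88), and the lower Ldb2, a cofactor that binds LIM domains, at 1.06 and 0.521 (ratio 0.493, 0.337 to 0.727). Rxra, the partner of Pparg, stood at 1.93 and 1.02 (ratio 0.529, 0.402 to 0.7), an interval under 1 that falls short of the limit of 0.5. The E protein Tcf4 stood at 6.37 and 6.82 (ratio 1.07, 0.937 to 1.23).

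Of 20 other mesenchymal factors 10 had at least 20 UMIs, 0 of them higher and 2 lower. Nr2f1, an orphan nuclear receptor, stood at 0.920 and 0.370 (ratio 0.403, 0.263 to 0.622), and Runx2, the Runt factor of bone, at 0.322 and 0.103 (ratio 0.320, 0.144 to 0.714). Nr2f2, the relative of Nr2f1, stood at 5.82 and 7.26 (ratio 1.25, 1.09 to 1.44), and Gata4 and Gata6 had intervals that hold 1. Osr1 stood at 1.38 in normal PF-like cells and at 1.26 in normal mesothelial-like cells and had no UMI in HSC-like cells. Ebf1, which is also a B cell factor (4.82 in normal lymphoid cells), stood at 3.68 in PF-like cells and had 4 UMIs in HSC-like cells. In the Ltbp2/Dpt sub-cluster, where Prrx1 stood at 1.89, Osr1 and Ebf1 stood at 0.0150 and 0.112.

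Of 8 genes known as Pparg targets 5 had at least 20 UMIs in HSC-like cells, of which 2 were higher and 0 lower. Cd36, a fatty acid transporter, stood at 0.345 and 1.38 (ratio 4.0, 2.37 to 7.27), and lymphoid cells had it at 0.957 and 4.84. Lpl, lipoprotein lipase, stood at 2.57 and 6.31 (ratio 2.45, 2.01 to 3.01), with lymphoid cells at 0.189 and 3.24. Cd36 thus lay below its lymphoid level in both libraries when scaled to the UMIs of each class, but lymphoid cells were shallower. Their median was 3170 (normal) and 2371 UMIs (fibrosis), against 6054 and 11421 UMIs in HSC-like cells. Cd36 counts per cell were not compared between these classes. Lpl also differed between the libraries in lymphoid cells, and the part of free RNA in the Cd36 and Lpl ratios was not tested. Plin2, of lipid droplets, stood at 1.84 and 1.65 (ratio 0.898, 0.695 to 1.17). Of the non-coding neighbours, Wt1os, antisense to Wt1, had 3 UMIs in normal and 11 in fibrosis mesothelial-like cells and 0 in HSC-like cells, and Fendrr and Hand2os1 are not listed in the tables used here.

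The genes whose levels were most like those of each factor were ranked by Pearson correlation of log2 levels (0.1 added) over 27 points, 13 classes of the normal library, the mixed myeloid cells among them, and 14 of the fibrosis library. The points share libraries, depth and free RNA, and no p is given. Nearest to Lhx2 were Colec10 (r = 0.985), Adamts13, Nr1h5 and Lama1 (0.981). Hand2 had Pde1a (0.970), Gucy1a1, Angptl2, Daam2 and Colec11 (0.956), and Tcf21 had Pcdh18 (0.975), Postn, Pdgfrb, Des and Cxcl12 (0.966). Foxf1 had Pde3a (0.981), Wfdc1, Tbx20, Zfpm2 and Hand2 itself (0.933). Prrx1 had Pi15 (0.981), Svep1, Mfap2, Htra3 and Dpt (0.963). For Wt1 they were Adgrd1 (0.968), Fgf2, Nkain4, Gas1 and Gpc3 (0.959), and for Pparg, more loosely, C3ar1 (0.862), Ms4a7, Cndp2, Mfsd1 and Lamtor1 (0.843). Colec10, Colec11, Des and Dpt are among the markers that named the classes.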

How the data were processed

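Liver NPCs of 1 normal and 1 fibrotic mouse were profiled by droplet scRNA-seq (10x Chromium, 3′ chemistry), with 1 library each. Per the labels, the authors used Cell Ranger 3.0.1 and mm10, and they deposited UMI counts per gene and cell without normalization. A table lists only genes that have a UMI there. The study used Scrublet against doublets. Run here, Scrublet called 3 normal and 0 fibrosis cells, too few to rely on, and no cell was removed.

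Cells with under 10% mitochondrial UMIs and over 200 genes were kept. Python 3.11.15, scanpy 1.11.5, scipy 1.17.1 and leidenalg 0.10.2 were used, with 2000 variable genes (without the 7 factors and the listed regulators), 10 principal components, 20 neighbours and Leiden clustering at 0.8, per library. A cluster took the class with most markers among its 10 leading genes (3 or more raised). Mesenchymal clusters were clustered again. A sub-cluster took the mesenchymal class with the highest mean log2 fold, unless a smaller share of that class's markers than of another's was raised over 2 times or none of its markers, or fewer than of another class, were among its 10 leading genes, and was set apart where the median marker of another cell type reached 0.25 of its level there; both limits were chosen after the data were seen. The 7 genes, the lists and the naming rules were chosen with earlier results of these data known.

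Levels carry exact Poisson, ratios exact conditional and shares exact binomial (Clopper-Pearson) intervals at 95%, and 0 counts are given an upper limit of 3. No p-value is given. The named genes were the 7 factors, list genes called higher or lower, relatives and partners, and the 5 genes most like each factor among those with at least 1 UMI per 10000 in a class; Tcf4, Gata4, Gata6, Nr2f2, Osr1, Ebf1 and Plin2 were named after their values were seen. A gene of the state list and a gene most like Lhx2 are not reported here. The call rule and intervals were tested on simulated data. Alternatives changed 1 choice at a time and are given in the closing section.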

Additional observations from a re-analysis of the deposited data

Results flagged for a closer look

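For Lhx2 and Hand2 the ratio of fibrosis over normal UMIs per 10000 lay below 1 in HSC-like cells and above 1 in endothelial-like cells, with both intervals leaving out 1. The ratios were 0.606 and 2.75 for Lhx2 and 0.776 and 4.06 for Hand2. The difference between the classes was not tested, as there is 1 library per condition. Per 10000 UMIs, both genes stood in endothelial-like cells at or below the level of the shallower lymphoid cells in each library. In lymphoid cells the ratios were 8.25 and 7.80.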

How the results depend on the processing

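Main values are 0.606 (Lhx2), 0.776 (Hand2), 0.912 (Tcf21), 0.869 (Foxf1), 16.6 (Prrx1) and 3.48 (Wt1) for the ratio of fibrosis over normal in HSC-like cells, with 2 factors higher and 0 lower. Values outside the main interval were these. Per cell instead of per 10000 UMIs, Lhx2 turned to 1.09 and Hand2 to 1.4, and Tcf21 and Foxf1 moved to 1.64 and 1.57, in cells that were deeper in the fibrosis library. With a mitochondrial limit of 5%, Hand2 was 0.987 and Tcf21 0.748, with 1 factor higher. That limit left 13 normal and 36 fibrosis HSC-like cells, and 28 fibrosis cells were unnamed with stellate markers highest. Without a limit Lhx2 was 0.511, Hand2 0.533 and Tcf21 0.634, with 0 higher. There 66 normal and 71 fibrosis cells were HSC-like, and 80 fibrosis cells were unnamed with stellate markers highest. Without the 5% highest doublet scores Prrx1 was 2.84, Tcf21 0.724 and Wt1 0.189, a turn of direction, with 1 higher. Without the second clustering Foxf1 was 0.621 and 1 factor was higher, and 1 instead of 5 fibrosis factors was highest in HSC-like cells among the named classes, with 93 cells then named portal fibroblast-like and 397 HSC-like. At a Leiden resolution of 1.5, 1 factor was higher, and with a limit of 1.5 times 1 (Lhx2) was lower. Of the alternatives added after the data were seen, a limit of 0.4 for setting sub-clusters apart gave Lhx2 0.462, Hand2 0.598, Tcf21 0.681 and Foxf1 0.587, with 1 lower, and the sub-cluster with less Col1a1 alone gave Hand2 0.566 and Tcf21 0.668, with 0 higher. Prrx1 was above 1 wherever it had a ratio (with the 5% limit it had none), between 2.84 and 29.8, and Lhx2 was below 1 in every alternative except UMIs per cell. Where not named, the causes were not tested. Without the 3 cells with most UMIs, Prrx1 and Wt1 had no normal UMI left and gave no ratio. No paired analysis was possible because each condition has 1 library. In normal HSC-like cells Prrx1 had 2 and Wt1 3 UMIs, which leaves wide counting intervals.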
